A study of Mus musculus with 8 samples.

Results

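Kinesins are the motor proteins that use ATP to walk along microtubules or to shorten them. The kinesin motor genes examined here are the genes of the array whose symbol begins with Kif followed by a number or the letter c. They were found by name alone, and 42 of the 22180 genes with a probe set of their own met that rule. Each gene is represented by its brightest probe set over all arrays. By known role, 14 were counted as mitotic kinesins, 17 as transport kinesins and 11 as neither, the last group holding ciliary, signalling, dual and little studied members and the pseudogene Kif4-ps.

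The study compared 2 groups of AML12 cells, a line of mouse hepatocytes. Wild-type cells (4 cultures) and VWA8-null cells, from which the gene for VWA8, a mitochondrial ATPase, had been removed by CRISPR/Cas9 (4 cultures), were differentiated before RNA was taken. All 8 cultures received a medium with serum, insulin, transferrin, selenium and the glucocorticoid dexamethasone. Each culture gave 1 Affymetrix array, and the values are the deposited log2 signals. The labels do not say how many knockout clones were used, so an effect of the deletion and a difference between clones cannot be told apart.

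A kinesin consists of a motor domain that binds microtubules and a tail that binds cargo, other microtubules or chromosomes. Mitotic kinesins build the spindle, move chromosomes and split the cell, and their transcripts are made mainly late in the cell cycle, in G2 and mitosis. Transport kinesins carry vesicles, organelles and ciliary components in resting and dividing cells alike. In hepatocytes, polarized cells that divide rarely in the adult liver, transport along microtubules serves secretion, endocytosis and bile canaliculi.

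The labels were first checked against the deleted gene. Vwa8 read 8.95, 9.01, 8.91 and 8.95 in wild-type replicates 1 to 4 and 5.12, 5.22, 5.07 and 5.33 in knockout replicates 1 to 4, a log2 fold change of -3.77 ± 0.0696 (SE). An exact two-sided permutation test of the 70 arrangements gave p = 0.0286, the smallest that 4 against 4 arrays allow. Array medians lay between 4.27 and 4.33. The cells carried hepatocyte markers in both groups, and all 9 measured markers rose in the knockout (10.4% of all genes rose), with a summed linear signal of 22639 to 23310 in wild-type and 29554 to 31186 in knockout arrays. In both groups markers of stellate cells and fibroblasts (7 genes), endothelial cells (5) and lymphocytes (3) all lay below the median gene of the arrays, 4.57. Of the macrophage markers 2 of 5 lay above it. No gene of these 4 lists passed in limma, where 1 stellate, 1 macrophage, 0 endothelial and 0 lymphocyte markers had an unadjusted p under 0.05. Their summed linear signals overlapped between the groups, at 104 to 124 in wild-type and 101 to 115 in knockout arrays for stellate cells and fibroblasts, 68 to 78 and 75 to 80 for endothelial cells, 108 to 127 and 118 to 127 for macrophages, and 28 to 32 and 27 to 31 for lymphocytes. Among 4 cholangiocyte markers, Krt7 fell by 0.52 and the others did not pass, with a summed signal of 1501 to 1587 in wild-type and 1491 to 1610 in knockout arrays. The part of these shifts in the kinesin results was not tested.

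Mitotic kinesins were lower in the knockout nearly as a class, whereas transport kinesins moved little and in both directions. Of 14 mitotic members 12 fell and none rose at an adjusted p of 0.05 (limma, Benjamini-Hochberg over all 22180 genes), where 10.4% of all genes fell. Their median log2 fold change was -1.26, and -0.003 over all genes. In 10 of the 14 the signal dropped 2-fold or more, against 1.04% of all genes. Of 17 transport members 4 rose, 2 fell and 11 did not pass, where 10.4% of all genes rose, and their median was 0.04. Their largest change in either direction was 0.68. Among the 11 members of neither class 1 rose, none fell and the median was -0.08. In total 19 of 42 kinesins passed, beside 20.9% of all genes. In a bulk culture, fewer dividing cells and less transcript per dividing cell cannot be told apart.

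**Figure D1:**
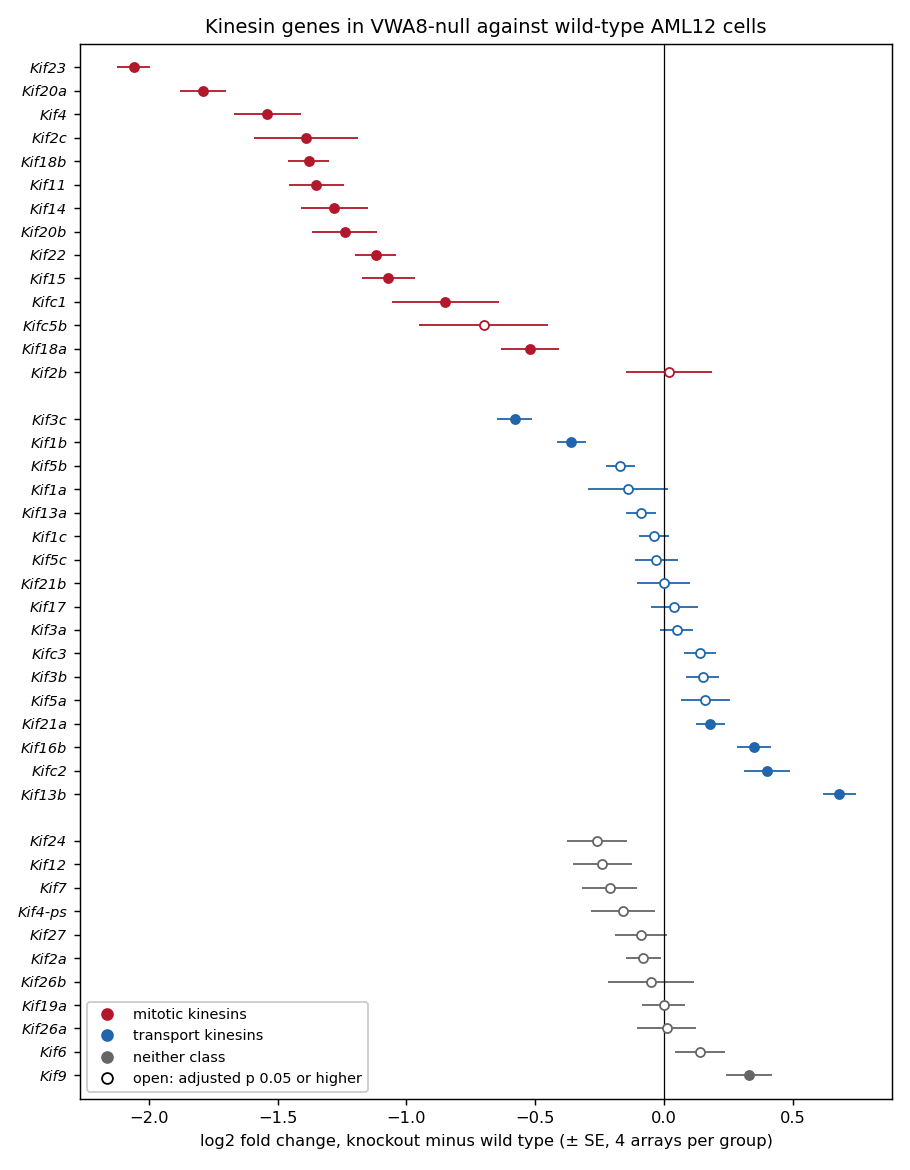
Log2 fold change of each kinesin gene, knockout minus wild type, with its SE (4 arrays per group), grouped into mitotic (red), transport (blue) and neither (grey); filled points passed the adjusted p of 0.05. All mitotic members but Kif2b, at 0.02, lie at -0.52 or lower, while transport members spread from -0.58 to 0.68.

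The single arrays show the same separation. Averaged over the 14 mitotic members, the wild-type arrays read 5.63, 5.57, 5.71 and 5.81 and the knockout arrays 4.45, 4.49, 4.62 and 4.52. Every wild-type mean lay above every knockout mean, and the groups stood at 5.68 ± 0.104 and 4.52 ± 0.0725 (SD, n = 4). The 17 transport members averaged 6.75 to 6.80 in wild-type and 6.79 to 6.84 in knockout arrays, and these ranges overlapped. For 13 of the 14 mitotic members, every knockout array lay below every wild-type array, a separation found for 13.2% of all genes. Over all 42 kinesins the groups separated in this way for 16 downwards and 5 upwards, beside 26.1% of all genes in either direction. Among the 12 that fell, wild-type replicate 4 was the highest wild-type array in 8 and replicate 3 in 4. Of the knockout arrays, replicate 3 was the highest in 6 and replicate 1 the lowest in 6. These members are not independent of each other, and the same counts over all genes were not made. Whether the order reflects the cultures or the arrays was not tested.

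Promoter sequences are shown because members that fell together can be compared for the elements known from late cell cycle genes. CCAAT boxes bind the factor NF-Y, and the cell cycle genes homology region (CHR), with the core TTTGAA, binds the DREAM and MuvB complexes that repress such genes in resting cells and activate them before mitosis. RefSeq promoter windows of assembly GRCm38.p6, from 250 bases before to 50 bases after the transcript start, were found for 33 of the 42 kinesins, 13 mitotic, 11 transport and 9 of neither class. Kif20a, Kif13b, Kif5a, Kif5b, Kif21b, Kifc2, Kifc3, Kif19a and Kif4-ps were not matched. The first 3 sequences below are the 100 bases before the start of Kif11, Kif22 and Kif15, and the next 2 are 30 bases around the start of Kif23 and Kif20b. All of these have a TTTGAA match that begins within 30 bases of the start. No mitotic window without such a match is printed. Kif16b, which rose, and Kif3c, which fell without being mitotic, are given for comparison. Capitals mark CCAAT and TTTGAA on either strand, so that ATTGG and TTCAAA are matches on the opposite strand.
Kif11, chr19:37376282-37376381, plus strand: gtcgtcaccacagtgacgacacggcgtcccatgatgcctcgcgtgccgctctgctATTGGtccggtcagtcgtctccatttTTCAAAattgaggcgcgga
Kif22, chr7:127042421-127042520, minus strand: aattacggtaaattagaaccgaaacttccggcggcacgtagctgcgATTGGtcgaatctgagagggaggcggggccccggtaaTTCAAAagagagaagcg
Kif15, chr9:122950981-122951080, plus strand: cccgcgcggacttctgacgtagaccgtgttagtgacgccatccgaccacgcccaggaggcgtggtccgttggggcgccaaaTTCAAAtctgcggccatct
Kif23, chr9:61946782-61946811, minus strand: cgctgATTGGcctgTTTGAAatgcgccggg
Kif20b, chr19:34922348-34922377, plus strand: gcgccgagccgccattgTTTGAATTTGAAa
Kif16b, chr2:142901465-142901564, minus strand: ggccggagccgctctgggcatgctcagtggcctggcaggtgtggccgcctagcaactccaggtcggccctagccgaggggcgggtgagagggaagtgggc
Kif3c, chr12:3365032-3365131, plus strand: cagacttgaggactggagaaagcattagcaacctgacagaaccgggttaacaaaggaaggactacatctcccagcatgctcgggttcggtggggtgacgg

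The CHR core was common in the mitotic windows and rare in the transport windows. TTTGAA was present, on either strand, in 11 of 13 mitotic windows, in 1 of 11 transport windows (Kif1a) and in 20.2% of the 27025 genes with a window. Counting only matches that begin within 30 bases of the start, it was present in 9 of 13 mitotic and none of 11 transport windows. It was also present in 1 of 9 windows of neither class (Kif26b) and in 3.66% of all genes. That limit was set after the positions of the matches had been seen. The 9 mitotic windows include those of Kifc1 and Kifc5b, which are near copies. In Kif11 and Kif15 the match nearest to the start began 19 bases before the start and in Kif22 17 bases before it, with the nearest CCAAT box of Kif11 beginning at -45 and that of Kif22 at -54. CCAAT was found in 9 mitotic and 3 transport windows and in 41.1% of all genes. CCAAT and TTTGAA occurred together in 8 mitotic windows, no transport window and 8.97% of all genes. The mitotic windows without TTTGAA were those of Kif18a, which fell (-0.52), and of Kif2b, which lay below the median gene in both groups. A link between the motif and the size of the change was not tested. Kif27 and Kif26b, of neither class, held both motifs and did not pass the test, at -0.09 and -0.05. The variant TTCGAA was found in no mitotic and no transport window, in 1 of 9 windows of neither class and in 1.8% of all genes. That window was of Kif24, which did not pass (-0.26), and the match began at -26. The E2F-like TTTGGCGC was found in Kif15 and Kif18a (0.585% of all genes), and TTTCCCGC in no kinesin (1.24% of all genes). Matches of different motifs did not overlap in any kinesin window. The motifs were chosen with the fold changes known, and a match is a description of letters, not of binding.

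**Figure D2:**
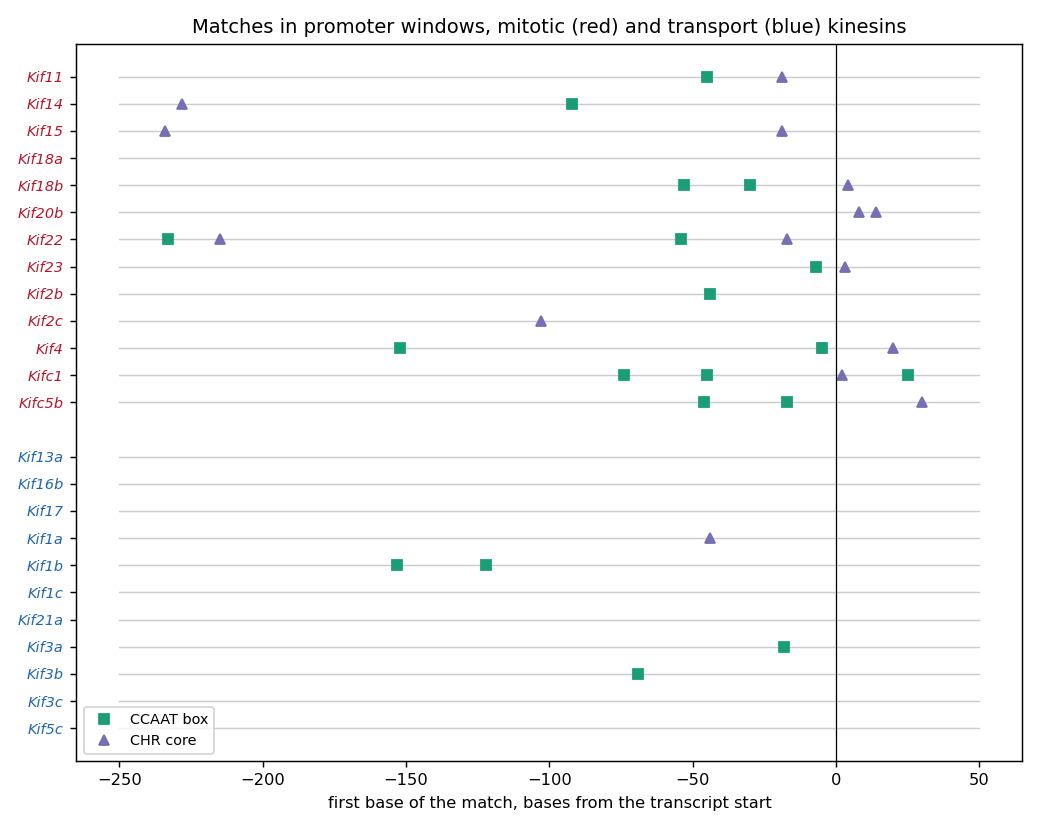
Position of CCAAT boxes (squares) and CHR cores (triangles) on either strand, in bases from the transcript start, in the windows of 13 mitotic (red names) and 11 transport kinesins (blue names); for the 2 transport genes with 2 starts, Kif1a and Kif1b, 1 start is drawn. CHR cores begin within 30 bases of the start in 9 mitotic windows and in no transport window.

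The kinesin-6 motors of cytokinesis included the largest falls. Kif23 is the motor of centralspindlin, which with Racgap1 bundles the midzone between separating chromosomes. It read 7.04, 7.07, 7.17 and 7.22 in wild-type replicates 1 to 4 and 5.05, 4.99, 5.14 and 5.11 in knockout replicates 1 to 4. All knockout arrays lay well below the wild-type arrays, and the log2 fold change was -2.06 ± 0.0654 (adjusted p = 4.85e-07), a 4.16-fold decrease. Kif20a carries the Aurora B complex to the midzone. Its arrays read 7.02, 7.01, 7.15 and 7.29 against 5.17, 5.42, 5.29 and 5.44, a change of -1.79 ± 0.0903 (adjusted p = 3.58e-06). Kif20b, also needed for abscission, read 6.78, 6.80, 7.02 and 6.90 against 5.70, 5.25, 5.82 and 5.76, or -1.24 ± 0.125 (adjusted p = 0.000155). Knockout replicate 2 was the lowest array of Kif20b, and the groups did not overlap without or with it. Kif14, a kinesin-3 motor that binds citron kinase and Prc1 at the midbody, read 5.09, 5.02, 5.15 and 5.23 against 3.44, 4.09, 3.89 and 3.95, or -1.28 ± 0.13 (adjusted p = 0.000159).

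Motors that set spindle length and bipolarity fell as well. Kif11, known as Eg5, is a tetramer that slides antiparallel microtubules and pushes the poles apart. It read 7.27, 7.30, 7.52 and 7.59 in wild type and 5.92, 6.13, 6.28 and 5.97 in the knockout, a change of -1.35 ± 0.106 (adjusted p = 3.73e-05). Kif15, which can take over part of the work of Kif11, read 4.59, 4.83, 4.83 and 5.08 against 3.67, 3.73, 3.77 and 3.88, or -1.07 ± 0.103 (adjusted p = 0.000116). All knockout arrays of Kif15, and likewise those of Kif14, Kif4, Kifc1 and Kifc5b, lay below the median gene. Kifc1 moves towards minus ends and focuses the spindle poles. It read 4.30, 4.24, 4.37 and 5.14 against 3.44, 3.60, 4.02 and 3.60, or -0.85 ± 0.208 (adjusted p = 0.0184). Wild-type replicate 4 stood apart, and without it the change was -0.64 (adjusted p = 0.0128), while without knockout replicate 1 it was -0.78 and missed the threshold (adjusted p = 0.0535). Kifc5b, a near copy of Kifc1, read 5.29, 4.63, 4.26 and 4.25 against 4.21, 3.69, 4.18 and 3.55 and did not pass, at -0.70 ± 0.25 (adjusted p = 0.0864). Its groups did not overlap either, and because the copies are so alike their signals may not be separable.

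Chromosome-bound motors and the motors that shorten microtubules made up the rest of the mitotic class. Kif4, a chromokinesin that works with Prc1 in the midzone, read 5.18, 4.99, 5.61 and 5.39 in wild type and 3.88, 3.77, 3.77 and 3.60 in the knockout, or -1.54 ± 0.129 (adjusted p = 5.42e-05). Kif4-ps, its pseudogene, had a low signal throughout and missed the threshold, at -0.16 ± 0.124. Kif22 pushes chromosome arms away from the poles, and it read 6.03, 5.99, 6.11 and 6.28 against 4.92, 4.97, 4.93 and 5.10, or -1.12 ± 0.0801 (adjusted p = 2.22e-05). Kif2c, or MCAK, removes wrongly attached microtubules at centromeres. Its arrays read 5.87, 5.60, 6.21 and 6.16 against 4.37, 4.90, 4.88 and 4.15, or -1.39 ± 0.201 (adjusted p = 0.0012), and both groups were more scattered than those of Kif23. Kif18b, which trims astral microtubules, had wild-type arrays close together, at 6.10, 6.14, 6.14 and 6.11, against 4.73, 4.56, 4.94 and 4.75, or -1.38 ± 0.0805 (adjusted p = 7.05e-06). Kif18a damps the movements of chromosomes at the metaphase plate. It changed least of the members that fell, with 4.98, 5.13, 4.95 and 5.36 against 4.65, 4.41, 4.78 and 4.49, or -0.52 ± 0.113 (adjusted p = 0.0106). Kif2b, a paralog of Kif2c, was dim, at 2.99 to 3.88 over all arrays, and did not pass (0.02 ± 0.168, adjusted p = 0.96).

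**Figure D3:**
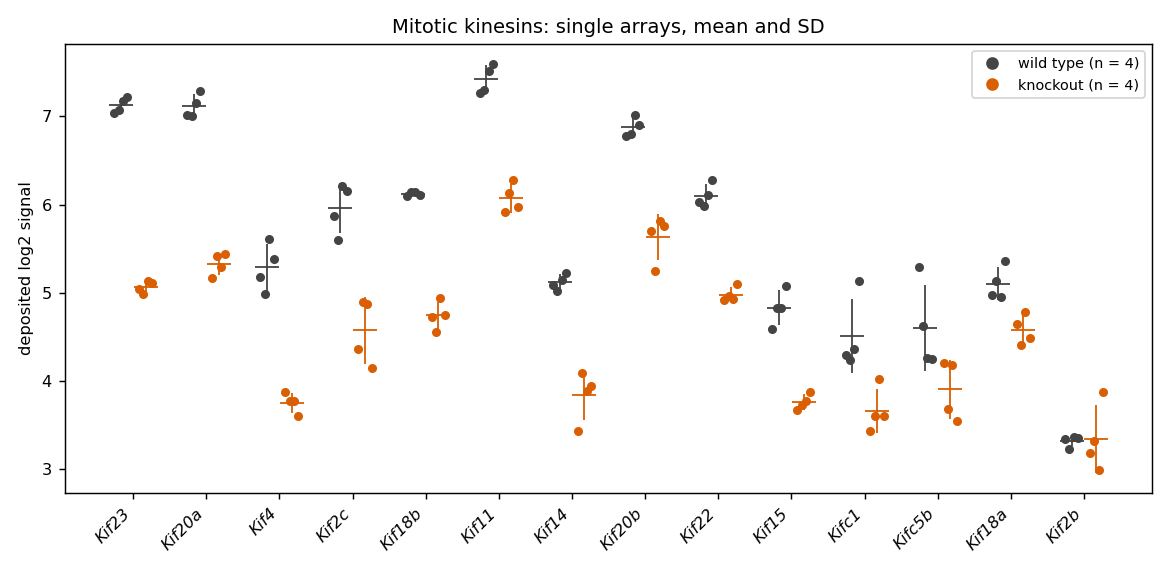
Deposited log2 signal of the 14 mitotic kinesins on each array, wild type in grey and knockout in orange (n = 4 each), with mean and SD. The groups do not overlap for 13 genes; Kif2b is the exception.

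The mitotic members lie on 10 chromosomes, with Kif11 and Kif20b both on chromosome 19, Kif15 and Kif23 on 9, Kif18b and Kif2b on 11 and Kifc1 and Kifc5b on 17, and the median change of the 30 nearest bright genes on each side ran from -0.12 around Kif22 to 0.18 around Kif18a. Subtracting that median left every mitotic fall past the threshold, with Kif18a at -0.70. Over all 17 alternative settings 11 of the 12 falls passed wherever the gene was tested, and Kifc1 was the exception.

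Transport kinesins held 2 clear changes in opposite directions. Kif13b, a kinesin-3 motor that binds the scaffold Dlg1 and is known to act in endocytosis in liver, was higher in the knockout. It read 7.19, 7.40, 7.25 and 7.20 in wild type and 7.96, 7.94, 7.89 and 7.98 in the knockout, a change of 0.68 ± 0.0639 (adjusted p = 9.95e-05) or 1.61-fold. Kif3c, which pairs with Kif3a, was lower, with 7.87, 7.84, 7.91 and 7.82 against 7.19, 7.18, 7.34 and 7.41, or -0.58 ± 0.0685 (adjusted p = 0.000383). A further probe set, annotated to both Kif3c and 1110002L01Rik and therefore not used, showed a change of -0.10 ± 0.0823, which missed the threshold. Its kinesin-2 relatives Kif3a and Kif3b, which together form the ciliary motor, did not pass. Kif3a read 7.09, 7.27, 7.30 and 7.30 against 7.27, 7.26, 7.29 and 7.32, and Kif3b read 6.94, 6.90, 6.97 and 7.09 against 7.18, 7.10, 7.07 and 7.15. Their changes were 0.05 ± 0.0647 (adjusted p = 0.689) and 0.15 ± 0.0627 (adjusted p = 0.139), with overlapping groups in both. Kif3b passed without the dimmest 50% of genes (adjusted p = 0.0441). The genes around it on chromosome 2 had a median change of 0.20, and after subtracting it the change of Kif3b was -0.05 (adjusted p = 0.67).

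The other changes among transport kinesins were small. Kif1b, a carrier of mitochondria and synaptic vesicle precursors, read 8.27, 8.27, 8.25 and 8.28 against 8.01, 7.85, 7.91 and 7.87, or -0.36 ± 0.0561 (adjusted p = 0.0018). The wild-type arrays lay closer to each other than to any knockout array. Kif16b moves early endosomes and read 7.34, 7.35, 7.25 and 7.45 against 7.61, 7.73, 7.66 and 7.78, or 0.35 ± 0.0663 (adjusted p = 0.00546). The genes around it on chromosome 2 had a median change of 0.22, and after subtracting it the change of Kif16b was 0.13 and missed the threshold (adjusted p = 0.225). Kifc2, a minus-end motor best known from neurons, read 5.35, 5.34, 5.44 and 5.22 against 5.76, 5.84, 5.83 and 5.51, or 0.40 ± 0.0876 (adjusted p = 0.0109). Kif21a, which restrains microtubule growth at the cell cortex, read 7.84, 7.91, 7.88 and 7.92 against 8.07, 8.07, 7.99 and 8.14. Its change of 0.18 ± 0.0556 barely passed (adjusted p = 0.0492) and missed under 10 of 17 alternative settings, including the omission of any array but knockout replicate 3.

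Kif5b, the widely expressed heavy chain of conventional kinesin, read 10.12, 10.24, 10.20 and 10.25 in wild type and 10.07, 10.02, 9.98 and 10.05 in the knockout. The groups did not overlap, but the change of -0.17 ± 0.0562 missed the threshold (adjusted p = 0.0602; 0.00241 to 0.985 over the alternatives, 6 of which put it past). A second, dim probe set of Kif5b went the other way, at 0.18 ± 0.106, and the mean of both gave a change of 0.00. The neuronal heavy chains Kif5a and Kif5c also did not pass, at 0.16 and -0.03. The remaining transport members, Kif1a, Kif1c, Kif13a, Kif17, Kif21b and Kifc3, lay between -0.14 and 0.14 and none passed. Kif1a, Kif5a and Kif21b lay below the median gene in both groups.

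Among the kinesins of neither class only Kif9, a motor of motile cilia and sperm tails, passed. It read 5.68, 5.97, 5.81 and 5.99 against 6.33, 6.16, 6.09 and 6.18, or 0.33 ± 0.0883 (adjusted p = 0.0295), and the call was lost under 6 of 17 alternatives, with adjusted p up to 0.0814. Kif2a, a microtubule depolymerase of neurons and spindle poles, read 7.88, 7.93, 8.08 and 7.94 against 7.92, 7.94, 7.89 and 7.76 and did not pass (-0.08 ± 0.0684, adjusted p = 0.492). Kif12, linked in humans to cholestatic liver disease, read 6.09, 5.93, 5.77 and 5.61 against 5.59, 5.49, 5.81 and 5.55, or -0.24 ± 0.114 with overlapping groups (adjusted p = 0.199). Kif7, which holds hedgehog signalling components at the cilium tip, read 4.89, 4.89, 4.85 and 4.75 against 4.78, 4.35, 4.84 and 4.58, or -0.21 ± 0.107 (adjusted p = 0.226). Both probe sets of Kif7 pointed the same way, the dimmer one at -0.14. The other members, Kif4-ps aside, were Kif6, Kif19a, Kif24, Kif26a, Kif26b and Kif27, with changes from -0.26 (Kif24, a microtubule depolymerase at centrioles) to 0.14 (Kif6).

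**Figure D4:**
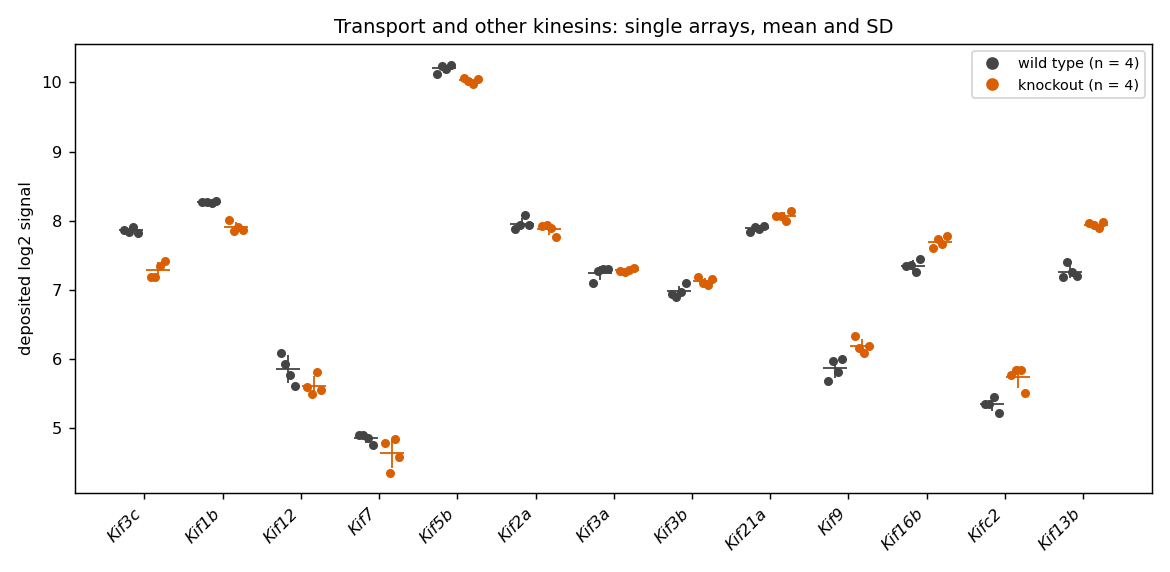
Deposited log2 signal on each array of the transport and other kinesins described one by one, ordered by fold change, wild type in grey and knockout in orange (n = 4 each), with mean and SD. Kif3c and Kif1b are lower and Kif13b, Kifc2, Kif16b, Kif9 and Kif21a higher in the knockout without overlap of the groups. Kif5b is also lower without overlap but did not pass the threshold, while Kif12, Kif7, Kif2a, Kif3a and Kif3b overlap.

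Relatives within a family were also set beside each other, as a description of single pairs. Within each kinesin family all pairs of measured members were compared, 61 pairs in 11 families, by an exact two-sided permutation test on the difference of the 2 log2 signals per array. In 36 pairs the exact test reached p = 0.0286, the smallest that 4 against 4 arrays allow. After Benjamini-Hochberg adjustment over the 61 pairs this is 0.0484, close to the threshold. The share of pairs drawn from all genes that reach it was not computed. Taken singly, 26.1% of all genes already separated the groups, so the count of pairs is not a result about kinesins. Many of the 36 set a mitotic member against a member of another class and so repeat the class difference. All 36 calls would be lost together had more pairs without a difference been counted, and the pairs were drawn up with the fold changes known. Kif13b changed by 0.78 ± 0.0726 (SE) more than Kif13a, a carrier of the mannose 6-phosphate receptor. Kif3c differed from Kif3a by 0.63 ± 0.0711, and Kif1b from Kif1c, a motor of Golgi and integrin vesicles, by 0.32 ± 0.0479. The depolymerases Kif2a and Kif2c differed by 1.31 ± 0.201, and the kinesin-8 motors Kif18a and Kif18b by 0.86 ± 0.101. In the kinesin-4 family the mitotic Kif4 and Kif21a, counted here as a transport kinesin, differed by 1.72 ± 0.157. Within kinesin-6, Kif23 fell further than Kif20a by 0.27 ± 0.0794 and further than Kif20b by 0.82 ± 0.106. No pair within the kinesin-1 family (Kif5a, Kif5b and Kif5c) passed, the largest difference being 0.33 ± 0.114 between Kif5a and Kif5b (adjusted p = 0.083). Kifc1 and Kifc5b were not told apart, with a difference of 0.15 ± 0.438 (adjusted p = 0.826).

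Genes that work with the mitotic kinesins were lower too. Of 29 measured partners, 27 fell and none rose, beside 10.4% of all genes in each direction, with a median log2 fold change of -1.31. The spindle kinase Plk1 stood at -2.23 ± 0.0758, Anln, a scaffold of the cleavage furrow, at -2.27 ± 0.0809, the spindle protein Hmmr at -1.77 ± 0.0749 and Prc1, the midzone bundler that Kif4 and Kif14 bind, at -1.91 ± 0.0829 (each adjusted p no higher than 1.52e-06). Zw10, which recruits dynein to kinetochores and also acts in vesicle traffic, and Spc25 did not pass. Cenpe, the kinetochore kinesin without a Kif symbol, read 6.33, 6.55, 6.48 and 6.55 in wild type and 5.04, 5.18, 5.05 and 5.07 in the knockout, or -1.39 ± 0.069 (adjusted p = 3.46e-06). Of 14 regulators of G2/M transcription 4 fell (28.6%) and 3 rose (21.4%), beside 10.4% of all genes in each direction, with a median of -0.11. Foxm1, an activator of mitotic genes, stood at -1.09 ± 0.12 and Tfdp1, a partner of E2F factors, at -0.36 ± 0.0496. Parts of the DREAM and MuvB complexes went both ways. Rbl2, a pocket protein, stood at 0.65 ± 0.0521 and Lin52, a MuvB subunit, at 0.48 ± 0.0675. The pocket protein Rbl1 stood at -0.42 ± 0.104 and the MuvB subunit Lin54 at -0.28 ± 0.072, while Lin9 and Lin37 did not pass. The third gene that rose was E2f5, at 0.26 ± 0.0697.

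Of 15 measured light chains, adaptors and kinesin relatives, among them Cenpe, 5 rose (33.3%) and 2 fell (13.3%), the latter near the 10.4% of all genes that changed in each direction, with a median of 0.11. Those that fell were Cenpe and the light chain Klc1, at -0.22 (adjusted p = 0.035). Mapk8ip1, or JIP1, which links kinesin-1 to cargo, rose from 5.58 to 5.75 in wild-type arrays to 6.80 to 6.96 in knockout arrays, a change of 1.25 ± 0.0632 (adjusted p = 3.6e-06). Rhot1, the mitochondrial Miro protein, rose by 0.39 ± 0.064, and the light chain Klc4 by 0.30 ± 0.0565. Kifap3, the third subunit of the Kif3a and Kif3b motor, had a change of 0.17 ± 0.0605 that missed the threshold. Mapk8ip1 lies on chromosome 2, where its neighbours had a median change of 0.23.

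In cytoplasmic dynein and dynactin, the motor towards minus ends, 1 of 23 genes rose (4.35%) and 4 fell (17.4%), together near the 20.9% of all genes that passed (median -0.05), with the dynactin subunit Dctn2 at -0.45 ± 0.0788, the dynein light intermediate chain Dync1li1 at -0.23 ± 0.0537, Actr1a at -0.24 ± 0.0644 and the adaptor Hook1 at 0.48 ± 0.0847. Of 20 intraflagellar transport genes, cargo of the Kif3a and Kif3b motor, 3 rose (15%) and 2 fell (10%), near the 10.4% of all genes in each direction (median 0.10). Ift22 stood far from the rest at -1.64 ± 0.0837, beside Ift20 at 0.49 ± 0.0679, Ift43 at -0.41 ± 0.06 and Ift80 at 0.43 ± 0.0753. None of 10 hedgehog pathway genes, the pathway of Kif7, passed in limma, beside 20.9% of all genes (median -0.03), and 1 had an unadjusted p under 0.05, the nearest being Smo at -0.21 ± 0.07 (adjusted p = 0.0675). Of 25 microtubule regulators 1 rose (4%) and 6 fell (24%), beside 10.4% of all genes in each direction (median -0.08). Those with the smallest p were Map1b at -1.23 ± 0.0715, Tacc3, a spindle protein, at -1.27 ± 0.0933, Stmn1, which sequesters tubulin, at -0.93 ± 0.077 and Tacc2 at -0.47 ± 0.0525.

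**Figure D5:**
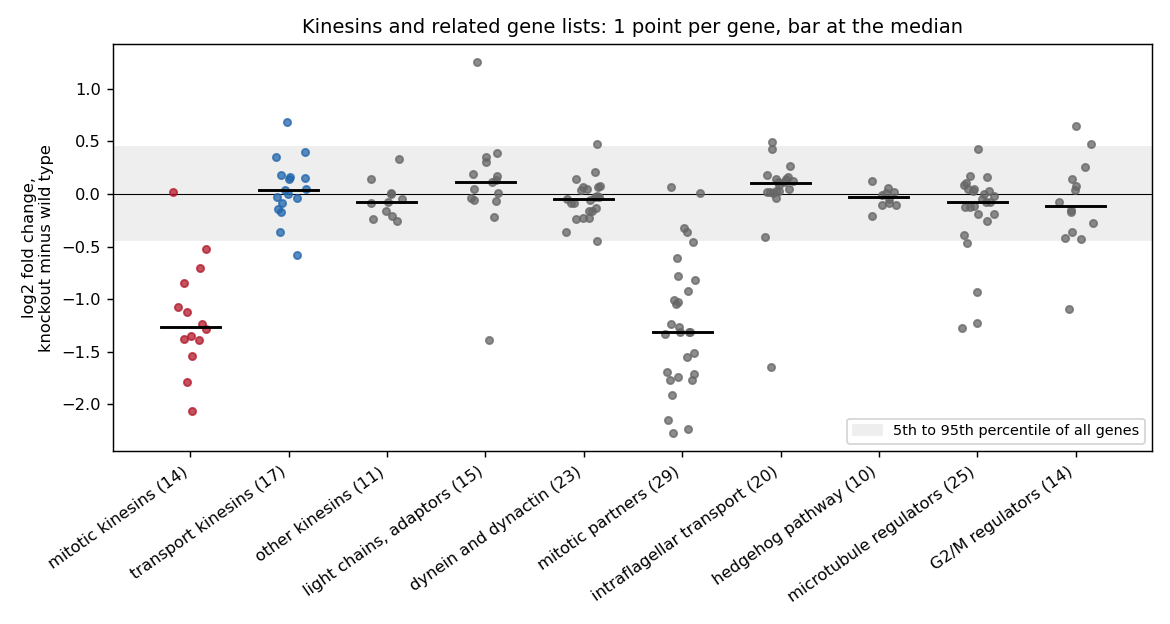
Log2 fold change, knockout minus wild type, of each gene of the 3 kinesin classes and of 7 lists of related genes (number of genes in brackets); bars mark medians and the grey band spans the 5th to 95th percentile of all genes, -0.44 to 0.45. Mitotic kinesins and mitotic partners have medians of -1.26 and -1.31, and the other lists lie between -0.11 and 0.11.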

How the data were processed

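Biotin-labelled total RNA of 8 cultures was hybridised to Affymetrix mouse 2.0 arrays, per the labels' protocols. The authors deposited 1 log2 value per probe set and array; the scale was read from the values, and how background, normalization and summarisation were handled is not given here. No normalization was added. Of 41345 probe sets, 23521 had 1 gene symbol in the platform annotation, 1814 several and 16010 none. Each gene kept its brightest single-symbol probe set. Genotypes were compared in limma 3.58.1 (R 4.3.3) with genotype as the only term, over all 22180 genes, with a Benjamini-Hochberg threshold of 0.05, and figures were drawn with matplotlib 3.10.9. The fit was tested on simulated data. Precision is limited by 4 arrays per group; the design text calls the cultures separate, and p-values measure the spread between them.

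Members, classes, lists, motifs, and pairs were chosen with earlier results of these data known. Named genes are every kinesin, with single arrays for those past the threshold and for Kif5b, Kif1b, Kif3a, Kif3b, Kif12, Kif7 and Kif2a, up to 4 members of each related list by adjusted p, and Cenpe. Kifc5b, Kif2b, Kifap3, Klc1, Zw10, Spc25, Rbl1, Lin54, Lin9, Lin37 and E2f5 were added after their values were seen. Signals were summed on the linear scale for marker lists. Chromosomes and gene order came from assembly GRCm38.p6 (21994 genes matched). Alternative settings left out each array in turn or the dimmest 25% or 50% of genes, averaged all probe sets per gene, weighted the arrays, centred or quantile-normalized them, let limma's variance prior follow intensity with robust estimation, blocked on the replicate number, or subtracted the median change of the 30 nearest genes on each side that lay above the median gene. Class medians were also recomputed with changed class members. With Kif2a counted as mitotic, 12 of 15 mitotic members fell and their median was -1.24. Without Kifc1 and Kifc5b, 11 of 12 fell and the median was -1.31. Keeping only members whose brighter group lay above the median gene also gave 11 of 12 and -1.31.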

Additional observations from a re-analysis of the deposited data

Results flagged for a closer look

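Of 54 groups of 4 arrays examined for a single array far from the others, 2 held one, where chance gives about 1 in 20. Kifc1 read 5.14 on wild-type replicate 4, against 4.24 to 4.37 on the other wild-type arrays. Kif3a read 7.09 on wild-type replicate 1, against 7.27 to 7.30 on the others, and did not pass the test with or without that array.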

How the results depend on the processing

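Of the 19 kinesins past the threshold, 15 passed in all of the 17 alternative settings that tested them, and Kif16b, Kif21a, Kif9 and Kifc1 did not. The kinesins that rose, 5 in the main analysis, numbered 3 with the replicate number as a block and 3 to 5 when 1 array was left out, and leaving out wild-type replicate 1 or 3 or knockout replicate 1, 2 or 4 gave 3. Same-numbered arrays correlated at -0.002 to 0.059, and the highest correlation with another number was 0.005 to 0.041. The same-numbered value was the higher for replicates 1 and 3 and the lower for 2 and 4, so no clear pairing was seen. In all, 3717 genes were called with the block, against 4626 without it. Kifc5b passed with the block (adjusted p = 0.0418) and with an intensity trend and robust variances (adjusted p = 0.0252). The mitotic median was -1.36, and the difference of medians from the transport class -1.40, without the dimmest 50% of genes, where 8 mitotic and 14 transport members were tested. Leaving out 1 array gave mitotic medians of -1.30 to -1.21. The transport median, 0.04, was -0.05 with the neighbours' median subtracted and ran from -0.0027 (without wild-type replicate 1) to 0.07 when 1 array was left out, so it has no settled sign. The cause was not tested. Counts of kinesins that fell ran from 11 to 16 over all settings. Dim probe sets bound what can be seen, since only 27 of 42 kinesins were above the dimmest 50% of genes. That filter used the mean over all 8 arrays, so a member could be left out because it fell. Kif14 and Kif4, above the median gene in wild type, were left out. In 31 of the 42 the brighter group lay above the median gene.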
